A study of Mus musculus with 6 samples.

Results

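The 9 genes described here are regulators and markers of the transition from an epithelial or endothelial to a mesenchymal state: the transcription factor genes Snai1, Snai2, Twist1, Twist2, Zeb1 and Zeb2, and the marker genes Vim, Fn1 and S100a4. They were taken by symbol from a table of 54532 genes, and each symbol matched 1 row. Their RNA was measured by bulk RNA-seq of polyadenylated RNA in 6 libraries of primary cultured mouse aortic endothelial cells (labelled MAEC), 3 from female and 3 from male mice. Every library carried the genotype label Oct4 KO, an endothelial-specific knockout of the gene of the pluripotency factor OCT4, and none had been treated. The cells grew in medium with serum, heparin and endothelial growth supplement. The promoter driving the deletion, the age of the mice and the number of mice behind each culture are not given in the sources used here. The study asked what OCT4 does in endothelial cells, by sex. Wild-type littermate cells were not analysed here, so the comparison is female against male within the knockout genotype, and no value below measures an effect of the deletion. Nothing in the labels says that libraries of 1 sex are from different cultures or mice. The p-values therefore cover the spread among these libraries alone, which may be technical.

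In a mesenchymal transition, cells joined in a sheet lose their junction proteins, reorganise their cytoskeleton and lay down a fibrillar matrix. SNAI and ZEB proteins are zinc-finger repressors that bind E-boxes, short DNA words of the form CANNTG, in the promoters of junction genes such as Cdh1 (E-cadherin). TWIST proteins are basic helix-loop-helix (bHLH) factors that bind E-boxes as dimers with E proteins, and TGF-beta is a classical signal that induces all 3 families. In the vessel wall the same programme is studied as endothelial-to-mesenchymal transition, but fibroblasts and other mesenchymal cells also carry these RNAs constantly, so their presence does not by itself show that a transition took place.

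Total counts were 19299742 to 23064738 per library. Levels are given as CPM, counts relative to the library size as scaled by edgeR's TMM method, and a count of 0 allows up to 0.123 to 0.154 CPM (3 counts, counting error only). Pou5f1, the gene of OCT4, had 0 counts in all 6 libraries. The sex labels held: Xist had 21282 to 31900 counts in female and 0 to 8 in male libraries, and the Y-linked gene Ddx3y had 0 counts in each female library and 731 to 1304 in the male. Most defining endothelial markers were near or at 0, against the cell label. Under 1 CPM throughout were 12 of 17 endothelial marker genes, and Cldn5, Emcn, Robo4 and Sox17 were at 0 counts. The 3 that reached 10 CPM in every library were Eng, at 92.2 CPM in females and 253 in males, Flt1, at 57.7 and 27.6, and Cd34, at 44.2 and 11.9. For Cdh5, the VE-cadherin gene, the female libraries held 0, 4 and 0 counts and the male ones 2, 0 and 3. Kdr, the gene of a main VEGF receptor, had 6, 16 and 6 counts in females and 0 in every male library. By contrast 9 of 12 fibroblast markers reached 10 CPM in every library, with a summed level of 15370 to 17290 CPM in female and 7260 to 7918 in male libraries. In bulk RNA a different share of cells of a type and a different amount of RNA per cell cannot be told apart.

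The sexes differed in most of these genes, and the SNAI pair went in opposite directions. Female cells carried more Snai2, Twist2, Zeb1, Zeb2 and Fn1 RNA, male cells carried more Snai1 and Vim RNA, Twist1 was not called, and S100a4 was close to absent from all libraries. Of these, the calls on Fn1 and Twist1 changed with a correction for gene length, described below, which also brought Zeb1 and Zeb2 closer to 0. Calls used edgeR's quasi-likelihood test and a threshold of 0.05 on the p-value after Benjamini-Hochberg adjustment over 14814 tested genes. By that rule 7 of the 8 members that passed the low-count filter passed, 5 with more RNA in female cells and 2 with less. Over all tested genes 60.7% were called, 30.9% higher and 29.8% lower, so a called member is the common case in these libraries. The member that failed the filter was S100a4. The other 8 had at least 419 counts in every library of both sexes. Their CPM ranges did not overlap between the sexes for any of the 8, 6 with female above and 2 with male above. Over all tested genes 67.1% also did not overlap, 33.9% with female above and 33.2% with male above. The median log2 fold change, female minus male, was 0.49 over the 8 members and -0.01 over all tested genes. With the length correction the members' median was 0.27.

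**Figure D1:**
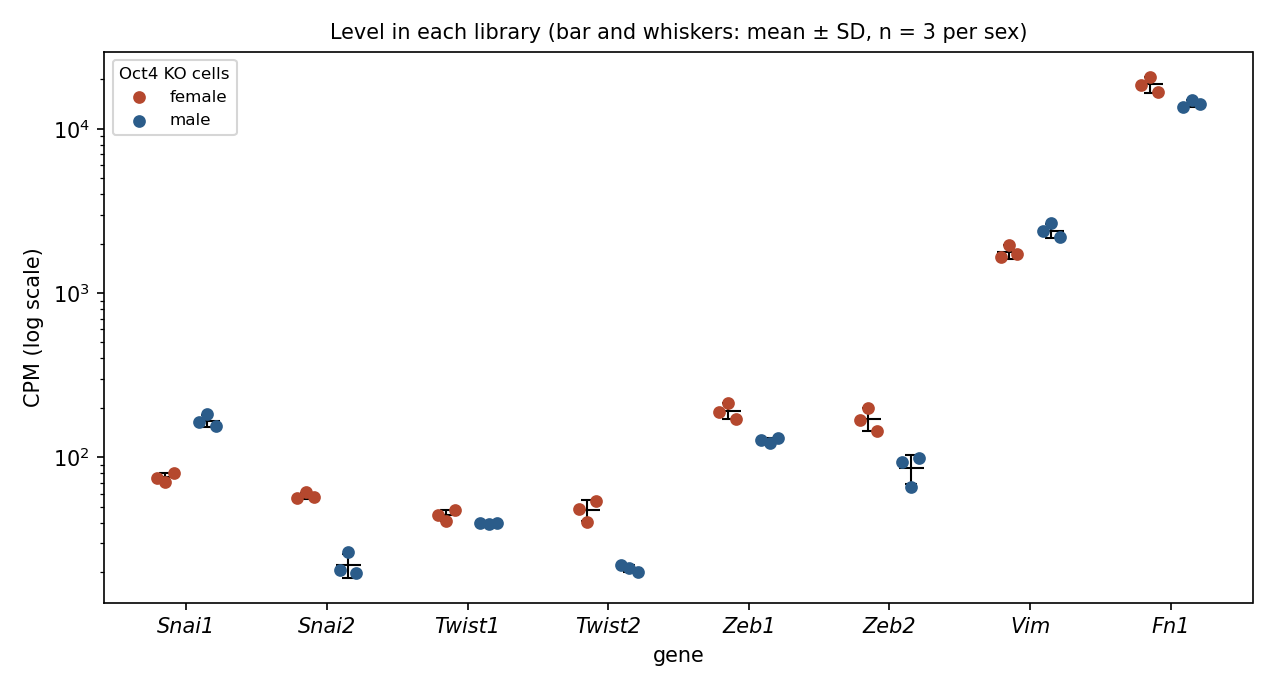
CPM of the 8 member genes that passed the low-count filter, on a log axis, in each female (red) and male (blue) Oct4 KO library, with mean and SD over 3 libraries per sex. Snai1 and Vim sit higher in male libraries, Snai2, Twist2, Zeb1, Zeb2 and Fn1 sit higher in female libraries, and the Twist1 ranges lie side by side.

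Snai1 encodes Snail, the founding repressor of the family, needed in the mouse embryo for mesoderm formation (ENSMUSG00000042821, mm10 chromosome 2, 167538195 to 167542814, plus strand, protein coding). It was at 74.8, 70.8 and 80.6 CPM in female replicates 1 to 3 and at 163, 182, and 156 CPM in male replicates 1 to 3. The highest female library stayed well under the lowest male one. The means were 75.4 ± 4.95 and 167 ± 13.7 CPM (SD, n = 3 each), 2.22-fold higher in male cells, and the fitted log2 fold change was -1.15 ± 0.09 (SE, edgeR adjusted p = 5.87e-09).

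Snai2 encodes Slug, which binds the same E-box core and is best known from neural crest and connective tissue (ENSMUSG00000022676, mm10 chromosome 16, 14705852 to 14709385, plus strand, protein coding). It went the opposite way, at 56.3, 61.2 and 57.3 CPM in female and 20.5, 26.3 and 19.6 CPM in male libraries. All female libraries lay above all male ones, with male replicate 2 the highest of its sex. The means were 58.3 ± 2.61 and 22.2 ± 3.63 CPM (SD, n = 3 each), 2.63-fold higher in female cells (log2 1.40 ± 0.11, edgeR adjusted p = 1.61e-08). Snai3, the least studied gene of the family, had 0 counts in all 6 libraries.

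Twist1, a bHLH factor of mesoderm and cranial mesenchyme (ENSMUSG00000035799, mm10 chromosome 12, 33957671 to 33959829, plus strand, protein coding), was the one tested member not called. It was at 44.2, 40.9 and 48.0 CPM in female and 39.6, 39.0 and 39.6 CPM in male libraries. The ranges did not overlap, but the lowest female value lay only just above the highest male one. The log2 fold change was 0.17 ± 0.09 (edgeR adjusted p = 0.125), which does not show that the sexes had the same level. With the length correction it became 0.50 and was called (edgeR adjusted p = 8.5e-05).

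Twist2, also known as Dermo1 from its role in dermal and other connective tissue, was called (ENSMUSG00000007805, mm10 chromosome 1, 91801461 to 91848028, plus strand, protein coding). It was at 48.4, 40.3 and 54.2 CPM in female and 22.0, 21.1 and 20.0 CPM in male libraries. Every female library stood clear of every male one, with a wider spread among the female libraries. The means were 47.7 ± 6.99 and 21.04 ± 1.06 CPM (SD, n = 3 each), 2.27-fold higher in female cells (log2 1.18 ± 0.12, edgeR adjusted p = 1.84e-07). An antisense gene, Gm29100, covers 1477 of the 3174 exon bases of Twist2. It had 55, 47 and 53 counts in female and 14, 6 and 12 in male libraries. Since the sources used here do not state the strand setting, reads over the shared bases may have been lost to both genes or assigned to either.

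Zeb1 encodes a large repressor with a zinc-finger cluster at each end and a homeodomain between them (ENSMUSG00000024238, mm10 chromosome 18, 5591860 to 5775467, plus strand, protein coding). It was at 189, 215 and 172 CPM in female and 128, 122 and 130 CPM in male libraries. The male libraries lay close together, below every female one. The means were 192 ± 21.6 and 127 ± 4.39 CPM (SD, n = 3 each), 1.51-fold higher in female cells (log2 0.60 ± 0.09, edgeR adjusted p = 1.67e-05). With the length correction the log2 difference was 0.18.

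Zeb2, also called SIP1 for its binding to SMAD proteins, the transducers of TGF-beta and BMP signals, is encoded on the minus strand (ENSMUSG00000026872, mm10 chromosome 2, 44983632 to 45117395, protein coding). It was at 170, 199 and 145 CPM in female and 93.4, 66.0 and 99.0 CPM in male libraries. Male replicate 2 was the lowest library, and the spread within each sex was the widest of the regulators together with that of male Snai2. The means were 171 ± 27.3 and 86.2 ± 17.6 CPM (SD, n = 3 each), 1.99-fold higher in female cells (log2 0.99 ± 0.13, edgeR adjusted p = 6.3e-06). With the length correction the log2 difference was 0.36. Its antisense gene Zeb2os shares 653 exon bases with it and had 5 to 25 counts per library, and the antisense transcript Gm10125 shares 198 exon bases with Zeb1 and had 49 to 161.

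Because the ratio of a pair of genes within a library is free of the scaling factor, the balance within each family was read per library, on RPKM (CPM per kilobase of the deposited gene length). Snai2 relative to Snai1 stood at a log2 ratio of -0.73, -0.53 and -0.81 in female and -3.31, -3.11 and -3.31 in male libraries. Snai1 was thus the higher of the pair in all 6, and Snai2 made up 38.3% ± 2.39 of their summed RPKM in female and 9.57% ± 0.69 in male cells (SD, n = 3 each). The summed RPKM of the pair was 75.3 ± 2.39 in female and 114 ± 10.3 in male cells. The log2 ratio differed by 2.55 between the sexes, a 5.87-fold change in balance. Twist1 relative to Twist2 was at 0.83, 0.98 and 0.79 in female and 1.81, 1.85 and 1.95 in male libraries, a difference of -1.0. Zeb1 relative to Zeb2 was at 1.11, 1.06 and 1.20 in female and 1.41, 1.84 and 1.35 in male libraries, a difference of -0.41 that shrank to -0.18 with the length correction and to -0.26 without male replicate 2. In each of the 3 pairs the libraries of the sexes did not overlap. An exact two-sided permutation test gave p = 0.1 for each, the smallest that 3 libraries against 3 allow (0.1 after Benjamini-Hochberg adjustment over the 3 pairs), so these differences cannot pass 0.05 by that test.

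**Figure D2:**
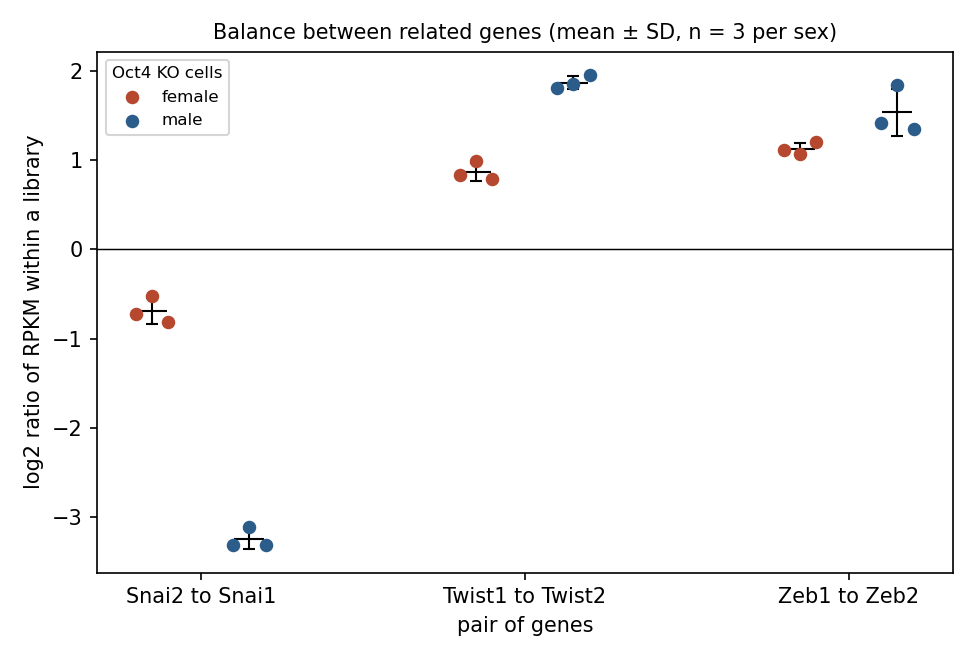
Log2 ratio of RPKM of Snai2 to Snai1, Twist1 to Twist2 and Zeb1 to Zeb2 within each library, with mean and SD over 3 female (red) and 3 male (blue) libraries. The Snai2 to Snai1 ratio is below 0 in all libraries and lies 2.55 lower in male cells on the log2 scale, the widest shift of the 3 pairs.

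The promoters of the called regulators, and that of Twist1 beside its family member, show where an E-box could lie at the start of these genes. RefSeq sequences (GRCm38.p6, the assembly of mm10) were at hand for 6 of the 9 members: Snai1, Twist1, Twist2, Zeb2, Vim and S100a4. The 250 bases before the start site were searched on both strands for CACCTG or its reverse complement CAGGTG, the core that SNAI and ZEB proteins bind, and for any CANNTG, which includes that core. Each promoter is printed 5′ to 3′ on the strand of its gene, in lower case with any CANNTG word in capitals.
Snai1, chr2:167537945-167538194, plus strand: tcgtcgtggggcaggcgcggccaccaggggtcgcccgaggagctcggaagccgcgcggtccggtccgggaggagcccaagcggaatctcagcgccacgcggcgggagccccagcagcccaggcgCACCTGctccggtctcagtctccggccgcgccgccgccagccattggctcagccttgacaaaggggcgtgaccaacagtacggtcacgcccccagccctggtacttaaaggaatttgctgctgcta
Twist1, chr12:33957421-33957670, plus strand: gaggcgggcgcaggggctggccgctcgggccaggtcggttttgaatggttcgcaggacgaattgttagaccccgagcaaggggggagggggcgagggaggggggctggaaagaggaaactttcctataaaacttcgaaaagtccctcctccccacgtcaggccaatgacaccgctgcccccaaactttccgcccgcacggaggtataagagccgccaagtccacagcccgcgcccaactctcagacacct
Twist2, chr1:91801211-91801460, plus strand: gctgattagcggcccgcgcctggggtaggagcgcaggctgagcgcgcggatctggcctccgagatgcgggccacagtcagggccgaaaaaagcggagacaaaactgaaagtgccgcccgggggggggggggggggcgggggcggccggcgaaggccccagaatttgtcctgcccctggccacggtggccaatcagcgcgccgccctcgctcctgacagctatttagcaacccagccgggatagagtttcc
Zeb2, chr2:45117443-45117692, minus strand: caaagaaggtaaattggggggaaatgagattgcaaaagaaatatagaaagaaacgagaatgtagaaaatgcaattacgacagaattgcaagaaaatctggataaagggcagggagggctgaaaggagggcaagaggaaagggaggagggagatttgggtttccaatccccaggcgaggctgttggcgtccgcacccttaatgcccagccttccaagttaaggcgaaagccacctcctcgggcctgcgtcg
Only the Snai1 promoter among the 6 held an E-box of either kind, a CACCTG that begins at position -126, counting the last base before the start site as -1. The promoters of Twist1, Twist2 and Zeb2 printed here held 0, as did the windows of Vim and S100a4. All 250 bases of the Vim window lie within annotated exons of Vim, downstream of the start of the deposited gene. Of 32851 promoters in the table, 17.2% held CACCTG or CAGGTG and 66.2% held any CANNTG in the same 250 bases. A match is a description of the letters and shows neither binding nor its absence.

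Vim encodes vimentin, the intermediate filament of mesenchymal cells (ENSMUSG00000026728, mm10 chromosome 2, 13573927 to 13582826, plus strand, protein coding). It was at 1647, 1974 and 1729 CPM in female and 2373, 2653 and 2185 CPM in male libraries. The sexes did not overlap, though female replicate 2 came near male replicate 3. The means were 1784 ± 170 and 2404 ± 235 CPM (SD, n = 3 each), 1.35-fold higher in male cells (log2 -0.43 ± 0.09, edgeR adjusted p = 0.000494).

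Fn1 encodes fibronectin, a matrix glycoprotein that cells bind through integrins (ENSMUSG00000026193, mm10 chromosome 1, 71585520 to 71653200, minus strand, protein coding). It was at 18470, 20820 and 16710 CPM in female and 13600, 14970 and 14180 CPM in male libraries. Of all counts it took 1.79% in female libraries and 1.48% in male libraries. The means were 18670 ± 2058 and 14250 ± 692 CPM (SD, n = 3 each), 1.31-fold higher in female cells (log2 0.39 ± 0.09, edgeR adjusted p = 0.000803). That call ended with the length correction, where the log2 fold change was -0.08 (edgeR adjusted p = 0.389).

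S100a4 encodes a calcium-binding protein long used as a fibroblast marker under the name FSP1, and also made by some leukocytes (ENSMUSG00000001020, mm10 chromosome 3, 90603771 to 90606045, plus strand, protein coding). Female replicates 1 to 3 held 0, 0 and 2 counts of it, and male replicates 1 to 3 held 2, 6 and 4. Summed over a sex this is 0.0334 CPM (95% exact Poisson interval 0.00404 to 0.120) in female and 0.184 CPM (0.0951 to 0.321) in male cells, counting error only. The level was therefore near the limit of detection in both, and it was not tested with the filter on. Without the filter its log2 fold change was -2.28 ± 1.88 (edgeR adjusted p = 0.371). A second gene model on the same strand, Gm42674, which had 0 counts in all libraries, shares 302 of the 584 exon bases of S100a4. Since the sources used here do not state how reads touching both were counted, the S100a4 level may be understated. Ptprc, the leukocyte gene of CD45, had 0 counts in all 6 libraries.

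Per kilobase of the deposited length, the order of the 9 genes was alike in both sexes except for Snai2. In female cells the mean RPKM was 1598 for Fn1, 376 for Vim, 46.5 for Snai1, 28.8 for Snai2, 27.3 for Twist1, 18.7 for Zeb1, 15.02 for Twist2, 8.59 for Zeb2 and 0.0579 for S100a4. Snai2 and Twist1 overlapped over their libraries, as did Zeb1 and Twist2, and the other neighbours did not. In male cells it was 1220 for Fn1, 507 for Vim, 103 for Snai1, 24.2 for Twist1, 12.3 for Zeb1, 10.96 for Snai2, 6.63 for Twist2, 4.32 for Zeb2 and 0.321 for S100a4, and only Zeb1 and Snai2 overlapped. Snai1 was the regulator with the highest RPKM in every library. The deposited length joins all annotated exons of a gene, which lowers the RPKM of genes with many transcripts. The length of the longest protein-coding transcript (chosen after seeing the data) changed this order. Zeb1 rose from 18.7 to 33.1 RPKM in female cells, above Snai2 at 28.8, and Zeb2 rose from 8.59 to 18.8. By that length Zeb1 stood above Twist1 (27.3) in female cells but below it in male cells, at 21.8 against 24.2. Twist2 and Zeb2, which overlapped in each sex, also changed places, at 18.9 and 18.8 in female and 8.33 and 9.44 in male cells.

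Differences between the sexes followed gene length across all genes, and this touches the long members. When each library was set against the average library, the slope of its log2 CPM on log2 length ran from 0.069 to 0.18 for female libraries and from -0.155 to -0.1 for male libraries. Zeb2 (19942 bases), Fn1 (11685) and Zeb1 (10266) are long, and Snai1 (1621), Twist1 (1628), Snai2 (2021) and Twist2 (3174) are short. Within each sex the libraries also differed in slope, and Zeb1 and Zeb2 followed its order in both sexes. In the female libraries Fn1 did so too, while Snai1, Twist1 and Twist2 followed the reverse order, with the other 2 members in neither. In the male libraries Snai1, Snai2 and Vim followed the reverse order and the other 3 members neither. A correction that removes a smooth length trend from each library moved Zeb2 from 0.99 to 0.36 (edgeR adjusted p = 0.00454) and Zeb1 from 0.60 to 0.18 (edgeR adjusted p = 0.0399). The Zeb1 call ended when the correction was joined with a replicate term (0.17, edgeR adjusted p = 0.0672). Snai1 at -0.82, Snai2 at 1.68, Twist2 at 1.29 and Vim at -0.51 kept their directions and calls. Whether the length trend comes from the cells or from RNA handling was not tested.

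**Figure D3:**
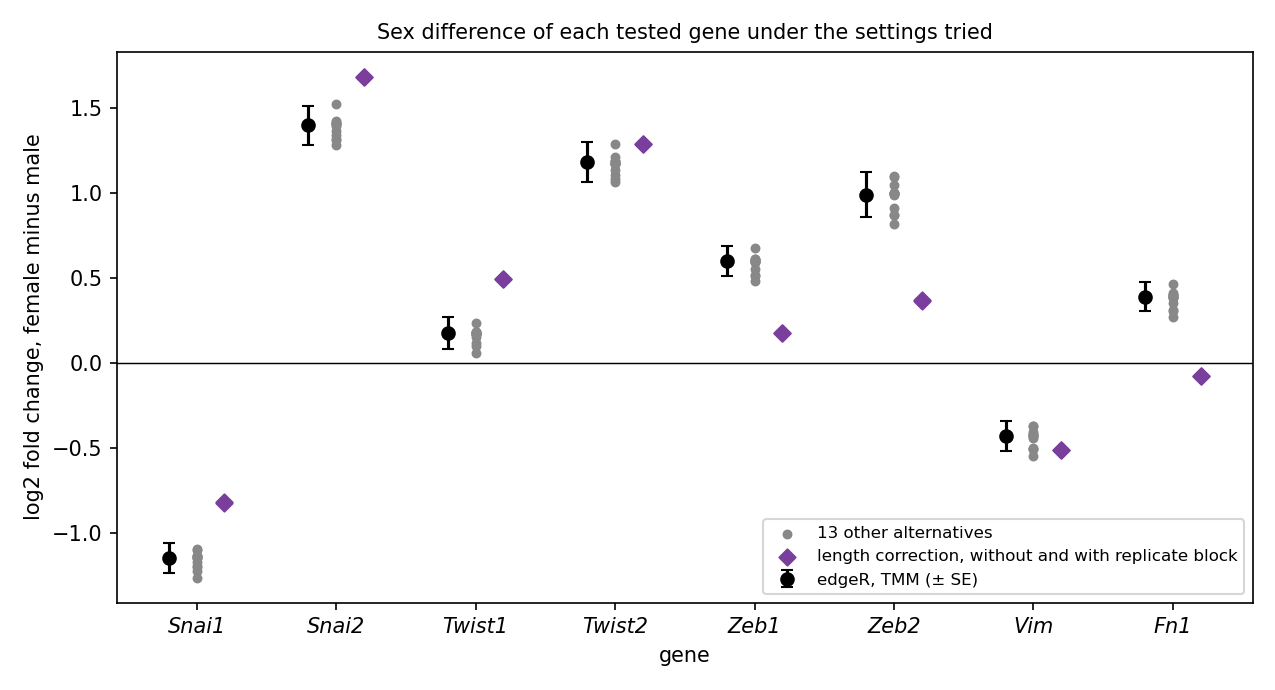
Log2 fold change, female minus male, of the 8 tested members: black points give the edgeR fit with TMM scaling and its SE, grey points the alternatives without length correction, and purple diamonds the length correction without and with a replicate term. The diamonds lie near or below 0.36 for Zeb1, Zeb2 and Fn1, with Fn1 at -0.08, and Twist1 lies at 0.50, while Snai1, Snai2, Twist2 and Vim stay on their side of 0.

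The dimer partners of TWIST were read from a list of 13 bHLH and ID genes, of which 9 were tested, with 2 higher, 4 lower and 3 not called in female cells (median log2 -0.50). Tcf12, which encodes the E protein HEB, was at 298 ± 29.99 CPM (female) against 82.3 ± 8.53 (male) (log2 1.85 ± 0.10). Tcf4, the E2-2 gene, was at 415 ± 23.8 and 239 ± 21.9 CPM (log2 0.80), a call that ended with the length correction (0.08, edgeR adjusted p = 0.341). Id2, an inhibitor that binds E proteins and blocks their binding to DNA, was at 11.7 ± 0.905 and 29.9 ± 2.35 CPM (log2 -1.35). Tcf21, a bHLH factor of visceral mesoderm and cardiac fibroblasts, had 0 counts in every female library and 460, 401 and 525 in the male ones.

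Among 20 other transcription factors tied to mesenchymal states 17 were tested, with 11 higher, 3 lower and 3 not called in female cells (median log2 0.67). With the length correction the Yap1 call ended (-0.03, edgeR adjusted p = 0.779). Prrx1, a homeobox factor of limb and connective tissue mesenchyme, was at 973 ± 73.0 CPM (female) against 275 ± 20.6 (male) (log2 1.82 ± 0.08). Ets1, a factor of endothelial and mesenchymal cells, was at 74.5 ± 1.12 and 35.0 ± 2.53 CPM. Tead1, the DNA-binding partner of YAP, was at 259 ± 24.7 and 147 ± 7.71 CPM, and Sox4, a target of TGF-beta, at 139 ± 18.4 and 59.2 ± 13.5. The log2 fold change of Tead1 moved from 0.81 to 0.30 with the length correction and stayed called.

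The genes that SNAI, TWIST and ZEB proteins are known to repress were mostly silent in both sexes. Under 1 CPM throughout were 21 of 30 such epithelial and endothelial genes, among them Cdh1, with 2 counts in male replicate 2 and 0 in the other libraries, and Cdh5. The low-count filter passed 10 of these 30, against 14814 of all 54532 genes, so a gene with few or no counts is the common case. Whether the regulators repressed any of them in these cells was not tested. Of the 10 tested 5 were higher, 3 lower and 2 not called in female cells. Tjp1, which encodes the junction scaffold ZO-1 and is also made by fibroblasts, was the only one to reach 10 CPM in every library, at 109 ± 11.3 CPM (female) against 51.8 ± 8.32 (male) (log2 1.08 ± 0.11). Krt19, a keratin gene, was at 0.303 ± 0.397 and 2.51 ± 0.221 CPM, and Cldn1, a tight junction gene, had 17, 11 and 13 counts against 1, 0 and 0. Pecam1, the CD31 gene, averaged 0.723 ± 0.292 CPM in females and 1.57 ± 0.351 in males (edgeR adjusted p = 0.0486), and its call held in 5 of 15 alternatives.

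Other mesenchymal markers were abundant, and they too split between the sexes. Of 27 listed genes 21 reached 10 CPM in every library, and of 26 tested 15 were higher, 7 lower and 4 not called in female cells (median log2 0.67). With the length correction Lrp1 and Col5a1 lost their calls as higher. Col1a1 (-0.21, edgeR adjusted p = 0.0367) and Col5a2 (-0.28, edgeR adjusted p = 0.00746) were then called lower. The matrix genes Tnc, for tenascin-C, at 1822 ± 149 against 273 ± 4.64 CPM, and the protease genes Mmp2, at 3365 ± 30.8 against 587 ± 35.2, and Mmp3, at 13730 ± 406 against 3043 ± 230, were higher in female cells. Cdh2, the N-cadherin gene, was lower, as were Snai1 and Vim, at 34.5 ± 3.60 against 169 ± 19.0 CPM (log2 -2.29 ± 0.10). Acta2, the smooth muscle actin gene often used as an endpoint of the transition, was at 3.71 ± 0.696 and 23.3 ± 1.75 CPM, and Tagln was at 0.642 ± 0.403 and 0.343 ± 0.314 CPM and not called. Beside these values stood the summed markers of 10 smooth muscle genes, 63.6 to 68.9 CPM in female and 160 to 174 in male libraries, with Myocd at 0 counts, and of 7 pericyte genes, 580 to 605 and 757 to 795 CPM. Most of the smooth muscle sum was Smtn, at 57.5 and 132 CPM, and 5 of the 10 genes stayed under 1 CPM throughout. Of the 6 smooth muscle genes tested 1 was higher, 4 lower and 1 not called in female cells. The pericyte genes did not move together: Rgs5, at 0.756 and 256 CPM, and Pdgfrb were lower in female cells, while the other 5 were higher, among them Cspg4 at 108 and 3.19 CPM (median log2 1.94). The summed fibroblast markers were higher in female libraries, in the direction of Snai2, Twist2, Zeb1, Zeb2 and Fn1. Of those 12 genes 8 were higher, 3 lower and 1 not called: Dcn was at 6375 and 442 CPM, but Fbln1 at 70.9 and 596 and Mfap5 at 8.48 and 40.9. The part of cell mixture in the members' differences was not tested.

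**Figure D4:**
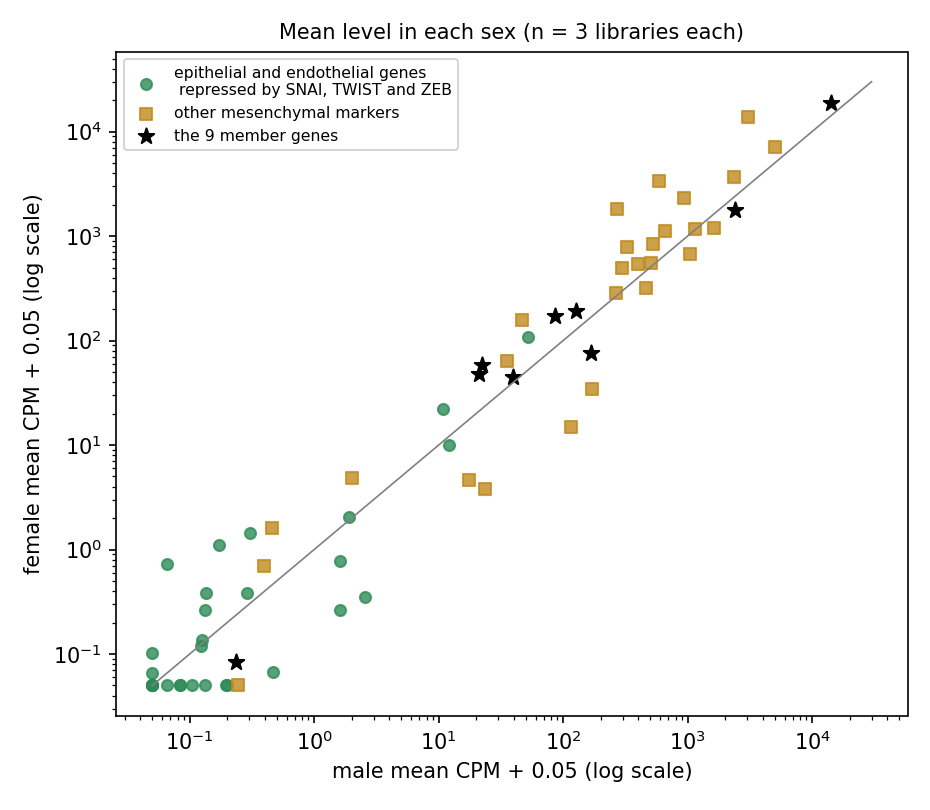
Mean CPM in female against male cells (3 libraries each), both on log axes after adding 0.05, for the 9 members (stars), 30 epithelial and endothelial genes repressed by the regulators (green circles) and 27 other mesenchymal markers (ochre squares). Most of the epithelial and endothelial genes lie under 1 CPM in both sexes, and S100a4 is the one member among them. Repression by the regulators in these cells was not measured.

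The signals and partners around the members were divided in direction, as were all tested genes, with 30.9% called higher and 29.8% lower. Of 27 TGF-beta and SMAD pathway genes, all tested, 12 were higher, 10 lower and 5 not called in female cells (median log2 0.14). With the length correction Skil and Smad5 lost their calls as higher, while Smad2 was called higher (0.29, edgeR adjusted p = 0.0181). Bmpr2 turned from higher to lower (-0.32, edgeR adjusted p = 0.00109). Tgfbr2 (-0.39, edgeR adjusted p = 0.000102) and Ltbp2 (-0.20, edgeR adjusted p = 0.0175) were then called lower. Bmp2, a BMP ligand gene, was at 245 ± 17.1 CPM (female) against 30.5 ± 3.72 (male), while Bmp4 had 4, 0 and 0 counts in female and 219, 322 and 274 in male libraries. The co-receptor genes Tgfbr3, at 774 ± 52.8 against 239 ± 15.5 CPM, and Eng, at 92.2 ± 8.93 against 253 ± 31.9, also went in opposite directions. Of 21 tested genes for fibronectin binding and assembly 8 were higher, 6 lower and 7 not called. With the length correction Itga4 (edgeR adjusted p = 0.064) and Tns2 (edgeR adjusted p = 0.0532) lost their calls as higher. Plaur was then called higher (0.23, edgeR adjusted p = 0.0349) and Parva lower (-0.28, edgeR adjusted p = 0.00269). Itga5, which encodes the alpha chain of the classical fibronectin receptor, was at 481 ± 22.2 and 331 ± 25.6 CPM (log2 0.54), Itgav at 244 ± 18.3 and 111 ± 8.09, Itgb3 at 137 ± 11.4 and 49.9 ± 4.82, and Itgb5 at 244 ± 18.6 and 554 ± 30.5. Tgm2, for the crosslinking enzyme transglutaminase 2, was at 17.1 ± 0.839 and 106 ± 13.1 CPM (log2 -2.64 ± 0.11).

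Vimentin had few partners of its own filament class at hand. Under 1 CPM throughout were 12 of 24 intermediate filament and linker genes, among them the muscle filament gene Des. Of 12 tested 3 were higher, 4 lower and 5 not called in female cells. Nes, the nestin gene, was at 60.2 ± 6.05 CPM (female) against 72.4 ± 5.16 (male) and called lower (edgeR adjusted p = 0.0219). That call held in 13 of 15 alternatives. Plec, the gene of the cytolinker plectin that ties vimentin to adhesions, was at 830 ± 27.6 CPM (female) against 419 ± 25.6 (male). Its log2 fold change moved from 0.99 to 0.39 with the length correction and stayed called. That correction also added Dst (-0.73, edgeR adjusted p = 1.3e-07) and Fbf1 (-0.31, edgeR adjusted p = 0.00693) to the genes called lower. The nuclear lamin genes Lmnb1 and Lmnb2 were lower, at 20.0 ± 1.94 against 34.5 ± 5.28 and 20.0 ± 1.45 against 37.2 ± 3.74 CPM. Other S100 genes differed widely in level, and some were abundant, unlike S100a4. Of 22 other S100 family and partner genes, 7 S100 genes were under 1 CPM in all libraries, with S100a9 and S100z at 0 counts. The other 15 were tested, with 3 higher, 7 lower and 5 not called, and with the length correction 6 rather than 3 were higher. Myh10, a nonmuscle myosin gene, was the one with the smallest adjusted p and was higher in female cells, at 247 ± 9.79 and 145 ± 12.6 CPM. S100a6 was at 460 ± 60.5 and 731 ± 30.8 CPM and S100a16 at 51.1 ± 5.95 and 87.6 ± 6.85. Myh9, the nonmuscle myosin heavy chain that S100A4 protein binds, averaged 867 ± 56.9 CPM in females and 887 ± 51.1 in males (log2 -0.03 ± 0.08, edgeR adjusted p = 0.748), and with the length correction it was called lower (-0.52, edgeR adjusted p = 6.8e-06).

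**Figure D5:**
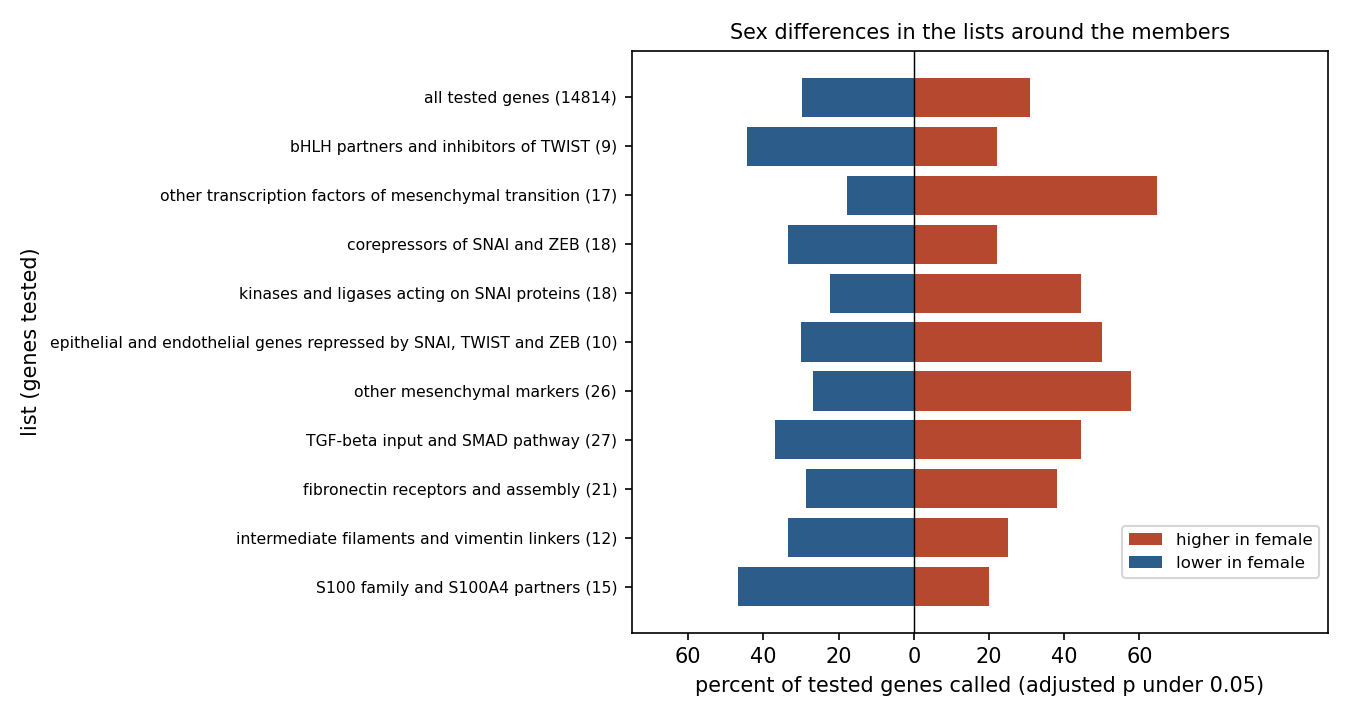
Share of tested genes called higher (red, right) and lower (blue, left) in female cells, in percent, for all 14814 tested genes and for the lists around the members, with the number tested in brackets. The other transcription factors (11 of 17) and other mesenchymal markers (15 of 26) lean to the female side, against 30.9% higher and 29.8% lower over all genes. The shares are from the fit without length correction, which ended the calls on Yap1, Lrp1 and Col5a1 among these.

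The genes nearest to each member in profile were sought among 10060 autosomal protein-coding genes averaging 5 CPM or more, by the Euclidean distance between centred log2 CPM over the 6 libraries. This is a description over few libraries that fall into 2 groups. The nearest to Snai1 were Nop56 (distance 0.068) and Rps18 (0.087), and to Vim Atg13 (0.11) and Tcp1 (0.11). Nearest to Snai2 were AI854703 (0.11) and Apc2 (0.15), and to Twist2 Neil1 (0.17) and Usp46 (0.20). Zeb1 had Sos1 (0.045) and Tpr (0.055), Zeb2 had Nufip2 (0.066) and Trp53inp1 (0.12), Fn1 had Zfyve9 (0.060) and Ppp2r3a (0.092), and Twist1 had Txnip (0.065) and Strn4 (0.069). No member was among the 2 nearest genes of another.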

How the data were processed

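Per the submitters' processing notes, HISAT2 2.0.5, featureCounts 1.5 and the build mm10 were used; the strand setting and the treatment of reads shared between genes are not given in the sources used here. The deposited table holds raw read counts per gene, which the authors did not normalise, and the gene length used here is the authors' deposited value, identical to the joined GENCODE M21 exons for all 9 members. Each column name matched 1 library name, and 0 rows lacked a gene name.

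All 6 libraries entered 1 quasi-likelihood fit (edgeR 4.0.16, R 4.3.3) with sex alone as term, after TMM scaling and the filterByExpr low-count filter. Tests (glmQLFTest) were two-sided with Benjamini-Hochberg adjustment, and each SE was taken as the fold change over the root of F. The fit was tested on simulated counts of 14814 genes, with 50 genes changed at each size and no length trend. It recovered 22% of the 1.25-fold, 76% of the 1.5-fold, 92% of the 2-fold and 100% of the 4-fold changes. Far fewer genes were changed than the 60.7% called in the data, so the simulation does not cover the setting of these data. Alternatives were other scalings, no filter, DESeq2 1.42.0, limma-voom (limma 3.58.1), a length correction (loess per library, span 0.5), a replicate term and leaving out each library. No protein comparison was run.

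The members and lists were chosen with earlier results of these data known. Named genes are the 9 members, up to 4 list genes with the smallest adjusted p, fixed cell markers, overlapping genes and the 2 nearest profiles; other genes were chosen after their values were seen. Some genes that this rule names are not reported here. Promoter windows were cut to the 250 bases before the start, a change from the planned 300. Chi-square values of 7 to 14.7 per degree of freedom showed that same-sex libraries were not copies of each other. They do not tell whether the libraries came from separate cultures.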

Additional observations from a re-analysis of the deposited data

How the results depend on the processing

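Over 15 alternatives, Snai1, Snai2, Twist2, Zeb2 and Vim kept their direction and call, with log2 fold changes of -1.26 to -0.82, 1.28 to 1.68, 1.06 to 1.29, 0.36 to 1.10 and -0.55 to -0.37. The length correction changed the others: Fn1 turned to -0.0772 without and -0.0753 with the replicate block, Twist1 became called (0.4952 and 0.4954), and Zeb1 lost its call only with the block added (0.1741). Of the alternatives, 1 changed the number of called members, from 7 to 6 (length correction with replicate block). With total counts only, the median of all genes moved to -0.13 and 42.8% of calls were higher in female, against 50.9%; with upper quartile scaling the share was 45.5%. Leaving out each library gave 8236 to 8841 called genes and 7 called members each time. Deviations of libraries with the same number from the mean of their sex correlated at -0.024, -0.114 and -0.164. Such deviations cancel out within a sex by construction, so these values do not tell whether libraries with the same number shared a day or batch. The replicate block gave 8525 called genes and 7 called members. The ratio difference between sexes ranged over leave-one-out from 2.47 to 2.62 for Snai2 to Snai1, from -1.06 to -0.96 for Twist1 to Twist2 and from -0.50 to -0.26 for Zeb1 to Zeb2, where the value nearest 0 came without male replicate 2. Depth limits only S100a4 among the members.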

Other observations

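Cofactors of the SNAI and ZEB repressors were called in 10 of 18 cases, near the 60.7% of all tested genes. All 18 listed corepressor genes reached 10 CPM in every library, with 4 higher, 6 lower and 8 not called in female cells (median log2 0.04) and a summed level of 1666 to 1700 CPM in female and 1682 to 1741 in male libraries. Rcor1, the CoREST gene whose product carries the demethylase LSD1 to SNAI proteins, was at 87.2 ± 3.72 CPM (female) against 55.9 ± 4.84 (male) (log2 0.64 ± 0.09, edgeR adjusted p = 8.44e-06). Ajuba, a LIM adaptor of SNAI proteins, was at 15.2 ± 0.699 and 29.4 ± 3.13 CPM, Ezh2, the polycomb methyltransferase gene, at 10.9 ± 0.246 and 22.1 ± 3.29, and Prmt5, an arginine methyltransferase gene, at 46.4 ± 1.14 and 70.1 ± 8.57. These 3 were higher in male cells, the direction in which 29.8% of all tested genes were called.

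SNAI proteins are short-lived, and kinases and ubiquitin ligases set their amount after the RNA is made, so RNA levels alone do not give protein levels. All 18 listed genes of this kind reached 10 CPM in every library, with 8 higher, 4 lower and 6 not called in female cells, and 5 rather than 8 higher with the length correction. That correction also added Lats2 (-0.32, edgeR adjusted p = 0.00775) and Usp10 (-0.49, edgeR adjusted p = 0.000161) to the genes called lower. Fbxl5, a ligase subunit that acts on Snail, was at 103 ± 6.57 CPM (female) against 57.05 ± 2.89 (male) (log2 0.85 ± 0.08). Fbxw11 was at 111 ± 3.74 and 71.4 ± 3.15 CPM, Fbxo11 at 104 ± 8.21 and 67.1 ± 3.88, and Mdm2, a ligase gene and target of p53, at 159 ± 10.95 and 246 ± 7.62.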
